A study of Mus musculus with 9 samples.

Results

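Prostaglandins are lipid mediators made from arachidonic acid, and the set described here holds 10 genes of their synthesis, breakdown and sensing: Pla2g4a, Ptgs1, Ptgs2, Ptges, Ptges2, Ptges3, Ptgis, Hpgd, Ptger4 and Ptgfr. The genes were taken by name from a list, out of the 56289 gene identifiers in the deposited table. No measured value entered the rule, but the list was chosen with earlier results of these data known. Poly-A RNA was sequenced from 9 libraries that the labels call RAW264.7 (macrophage-like cells of a BALB/c mouse), with 3 libraries in each of 3 groups. The groups were untreated cells, cells treated for 24 h with the inflammatory cytokine TNF (TNF-alpha), and cells treated for 24 h with both TNF and WBG, the herbal preparation Wang Bi granules. The labels give no time for the untreated cells and no dose of either agent, so time in culture and TNF cannot be told apart. No group received WBG without TNF. The submitters set out to list genes that change between these groups and to study how the drug acts. The labels do not say whether the replicates are separate cultures, and p-values therefore measure only the spread between these samples.

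In the pathway, the cytosolic phospholipase A2 encoded by Pla2g4a frees arachidonic acid from membrane phospholipids. The cyclooxygenases COX-1 (Ptgs1) and COX-2 (Ptgs2) turn it into prostaglandin H2, which terminal synthases convert to PGE2, PGI2, PGD2, PGF2alpha or thromboxane. COX-2 and the microsomal PGE synthase mPGES-1 (Ptges) are known as the inducible pair of inflamed tissue, where PGE2 acts in pain, swelling and fever, and COX-2 is the target of anti-inflammatory drugs used in arthritis.

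Values are the deposited FPKM, which scale fragments to gene length and to library size. Levels on this scale are per length and can be set side by side between genes. The deposited table holds no counts. If the smallest step seen in single-exon genes is taken as a single fragment, depth was 18.9 to 26.1 M (mega) fragments a library. Genes with at least 1 FPKM in at least 3 of the 9 libraries were tested (13026 genes). They were compared with limma on log2 of FPKM plus 1, two-sided. Calls are genes whose p, after Benjamini-Hochberg adjustment over the 13026, was under 0.05. The filter kept 6 of the 10 members. Ptgis, Hpgd, Ptger4 and Ptgfr did not reach it and have levels only. As a check of the treatment, the NF-kB inhibitor gene Nfkbia was at 24.7 ± 1.64 FPKM (SD, n = 3) in untreated and 80.3 ± 1.52 FPKM in TNF libraries. The chemokine gene Ccl2 was at 36.0 ± 2.86 and 265 ± 3.51 FPKM.

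The macrophage label was not borne out by the marker genes. Of 12 macrophage markers, 2 (Cd14 and Cd68) had a mean of at least 1 FPKM over the 9 libraries, and 4 (Adgre1, Itgam, Ptprc and Tyrobp) were listed at 0 in all of them. Of 12 fibroblast markers, 10 had a mean of at least 1 FPKM, all but Lum (listed at 0 throughout) and Thy1 (at most 0.0687 FPKM). The median of the means in that list was 247 FPKM. The summed macrophage list ran from 5.87 to 7.30 FPKM in untreated, 6.86 to 7.88 FPKM in TNF and 7.78 to 10.4 FPKM in TNF plus WBG libraries. The summed fibroblast list ran from 4261 to 4581, 4474 to 4621 and 4370 to 4595 FPKM in the same order. The small endothelial list, nearly all of it Egfl7, ran from 1.38 to 2.21, 1.66 to 2.07 and 2.31 to 3.14 FPKM. Of 6 mast cell markers, 5 were listed at 0 throughout. No neutrophil marker reached 1 FPKM in any library. The part of these lists in the results below was not tested. In such bulk libraries, fewer cells of a type and less RNA per cell cannot be told apart.

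The upstream sequence of 3 members is shown: both cyclooxygenase genes, which were called in no comparison and had fitted changes of opposite sign, and Ptges, the only member called in any comparison. Each is the 250 bases before the RefSeq start in GRCm38.p6, 5′ to 3′ on the gene's strand. Capitals mark letters matched by a motif searched on both strands. The windows in that build are chr2:36230176-36230425 (plus strand), chr1:150099781-150100030 (plus strand) and chr2:30903298-30903547 (minus strand).
Ptgs1: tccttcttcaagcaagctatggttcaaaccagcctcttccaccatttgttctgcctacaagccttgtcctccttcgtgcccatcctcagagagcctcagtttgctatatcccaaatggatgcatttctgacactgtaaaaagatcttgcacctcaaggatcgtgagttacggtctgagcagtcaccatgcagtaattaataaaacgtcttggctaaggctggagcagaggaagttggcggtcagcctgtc
Ptgs2: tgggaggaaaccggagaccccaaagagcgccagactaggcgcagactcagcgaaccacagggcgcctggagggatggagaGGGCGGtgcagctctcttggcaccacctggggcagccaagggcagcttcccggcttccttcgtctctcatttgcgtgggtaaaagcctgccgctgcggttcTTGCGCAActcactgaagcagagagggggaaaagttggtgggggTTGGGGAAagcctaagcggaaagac
Ptges: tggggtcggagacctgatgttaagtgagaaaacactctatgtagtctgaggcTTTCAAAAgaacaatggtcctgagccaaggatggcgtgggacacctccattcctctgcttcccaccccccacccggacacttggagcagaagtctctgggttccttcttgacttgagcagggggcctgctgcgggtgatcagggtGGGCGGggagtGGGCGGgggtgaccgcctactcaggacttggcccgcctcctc

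The Ptgs1 window matched none of the motifs and was 48.0% G or C, against 61.6% for Ptgs2 and 59.6% for Ptges. In the Ptgs2 window the capitals mark a GC box (GGGCGG) and matches to the C/EBP motif TTNNGNAA, of which ttgcgcaa, starting 69 bases before the start site, reads the same on both strands. In the Ptges window they mark 2 GC boxes, 53 and 42 bases before the start site, and a C/EBP match on the other strand. These motifs are common: of 32851 RefSeq promoter windows, 32.7% held a GC box and 36.8% a C/EBP match in the same 250 bases. None of the 3 upstream windows held a TATA box (TATAAA, 12.4% of windows), an AP-1 site (TGANTCA, 6.75%), a CCAAT box (33.8%), a cAMP response element (TGACGTCA, 1.55%), its half-site (TGACG, 17.8%), an E-box (CACGTG, 6.02%) or an NF-kB site (by its degenerate consensus, 7.25%). The half-site TGACG is part of the full cAMP response element, and the motifs may overlap. In the 50 bases after the RefSeq start of Ptgs2 lay a half-site on the other strand, from base 14, overlapped by an E-box from base 17. Over the full windows of 250 bases before and 50 after the start, 20.8% of RefSeq promoters held the half-site and 7.15% the E-box. RefSeq windows were matched for 9 of the 10 members, all but Ptgis. The NF-kB consensus was matched among them in the window of Ptges3, 87 bases before its start. These are matches of letters and say nothing of binding. Pla2g4a and Ptgs2 are neighbours on chromosome 1, with 0 protein-coding genes between their starts in RefSeq and 2 others, the non-coding Ptgs2os and a pseudogene.

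The 10 members spanned a wide range of levels. Ptges3 was by far the highest at 88.3 to 99.4 FPKM over the 9 libraries, above 95.4% of the genes tested. Pla2g4a followed with a mean of 8.58 FPKM, then Ptgs2 with 4.47 FPKM and Ptgs1 with 3.54 FPKM. Ptges2 (2.44 FPKM) and Ptges (2.42 FPKM) had nearly the same mean over the 9 libraries. Their ranges, 2.10 to 2.97 and 1.19 to 3.23 FPKM, overlapped, as did those of Ptgs2 (3.56 to 5.87 FPKM) and Ptgs1 (2.83 to 5.39 FPKM). Below the filter came Ptgis (at most 0.376 FPKM), Ptger4 (at most 0.236 FPKM), Ptgfr (at most 0.0202 FPKM) and Hpgd, which was listed at 0 in all 9 libraries.

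Pla2g4a, the substrate-releasing phospholipase gene, was lowest with TNF plus WBG. It had 8.70, 9.01 and 9.71 FPKM in the untreated libraries, 9.26, 9.03 and 9.68 FPKM with TNF, and 8.06, 6.41 and 7.34 FPKM with TNF plus WBG. The untreated and TNF libraries overlapped, while all 3 TNF plus WBG libraries lay below both. The log2 fold change was 0.03 ± 0.08 (SE) for TNF against untreated, with a 95% interval of -0.15 to 0.21 (limma adjusted p = 0.881). For TNF plus WBG against TNF it was -0.32 ± 0.08, a mean ratio of 0.779, and did not pass over all genes (adjusted p = 0.376). Against untreated libraries it was -0.30 ± 0.08 and lay just outside the threshold (adjusted p = 0.0508). It was called without TNF plus WBG replicate 1 (adjusted p = 0.0296), with a filter on a mean of at least 5 FPKM (0.0468) and with median-ratio scaling (0.0475), and its adjusted p over the alternatives reached 0.158.

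Against untreated, the cyclooxygenase genes had fitted changes of opposite sign, none of which passed. Ptgs2, which encodes COX-2, had 5.04, 4.73 and 5.87 FPKM in untreated libraries, 4.59, 3.98 and 4.13 FPKM with TNF, and 4.28, 3.56 and 4.08 FPKM with TNF plus WBG. Every treated library lay below every untreated one, and the treated groups overlapped with each other. The log2 fold changes were -0.25 ± 0.09 with TNF (95% interval -0.45 to -0.04, adjusted p = 0.143) and -0.32 ± 0.09 with TNF plus WBG (-0.53 to -0.11, adjusted p = 0.0665), both against untreated. Neither passed. Between TNF plus WBG and TNF the log2 fold change was -0.08 ± 0.09, with an interval of -0.28 to 0.13 (adjusted p = 0.859).

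Ptgs1, which encodes the widely expressed COX-1, had 2.99, 2.86 and 2.83 FPKM in untreated libraries, 3.66, 3.64 and 3.77 FPKM with TNF, and 3.11, 5.39 and 3.62 FPKM with TNF plus WBG. All treated libraries were above all untreated ones, and the TNF plus WBG group was spread on both sides of the TNF group. Log2 fold changes were 0.27 ± 0.14 with TNF (adjusted p = 0.293) and 0.35 ± 0.14 with TNF plus WBG (adjusted p = 0.185) against untreated, and neither passed. With TNF the limma adjusted p was 0.0538 with only the 6 libraries compared and 0.0544 without TNF plus WBG replicate 2. It reached 0.513 over the alternatives, none of which called it. TNF plus WBG against TNF gave 0.08 ± 0.14 (adjusted p = 0.914), and -0.11 without TNF plus WBG replicate 2. Without that library the value against untreated was 0.16. An uncharacterised gene on the opposite strand, at most 0.131 FPKM, overlaps exons of Ptgs1.

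**Figure D1:**
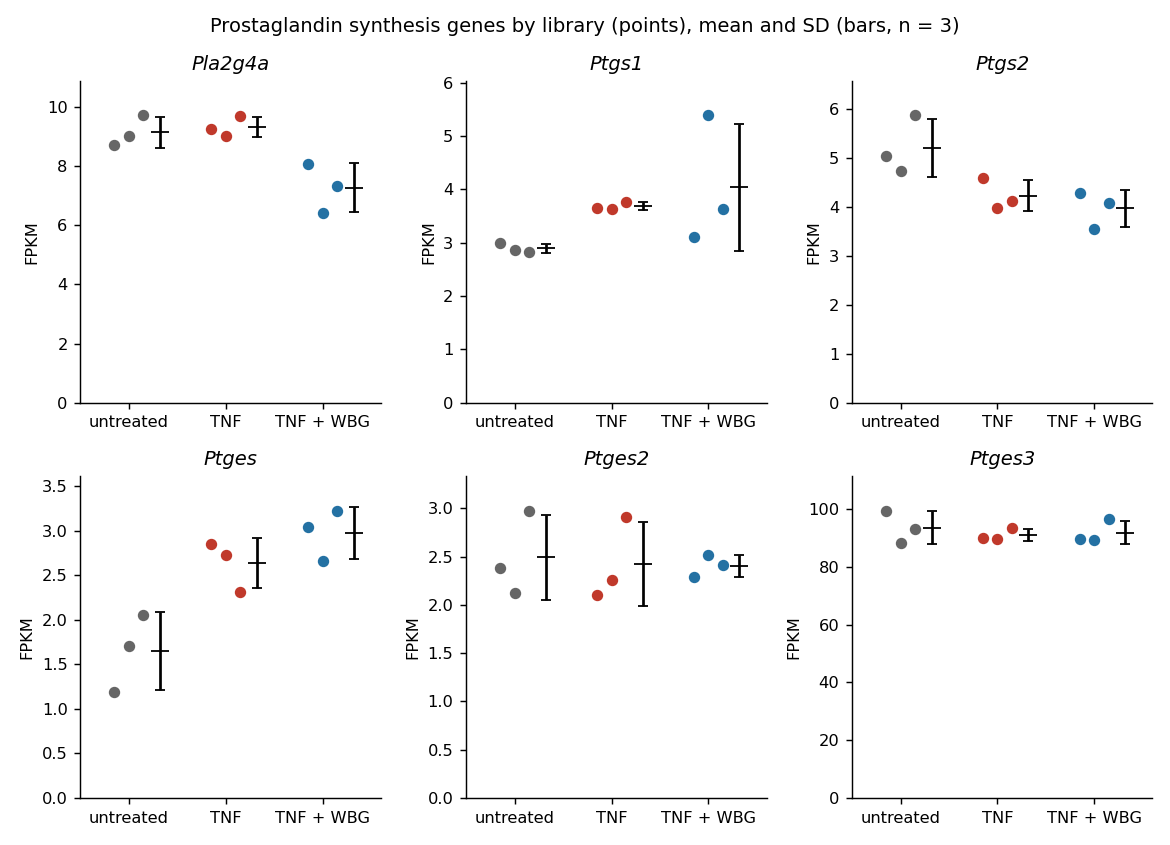
FPKM (vertical axis) of the 6 members tested in each of the 9 libraries (points, by group), with the group mean and SD beside them (n = 3). Ptges was higher in all treated than in all untreated libraries, Ptgs2 lower, and Ptges3 stayed between 88.3 and 99.4 FPKM.

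Since both are per length, the cyclooxygenase genes can be added. Their sum was 8.11 ± 0.56 FPKM (SD, n = 3) in untreated, 7.92 ± 0.313 FPKM in TNF and 8.01 ± 0.826 FPKM in TNF plus WBG libraries. These sums differed by less than the spread within groups. Ptgs2 made up 62.8, 62.3 and 67.5% of the sum in the untreated libraries, 55.7, 52.3 and 52.3% with TNF, and 57.9, 39.8 and 52.9% with TNF plus WBG. The Ptgs2 share was lower in every treated library than in every untreated one. The lowest share was that of the TNF plus WBG library with the highest Ptgs1. These shares are a description with no test.

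**Figure D2:**
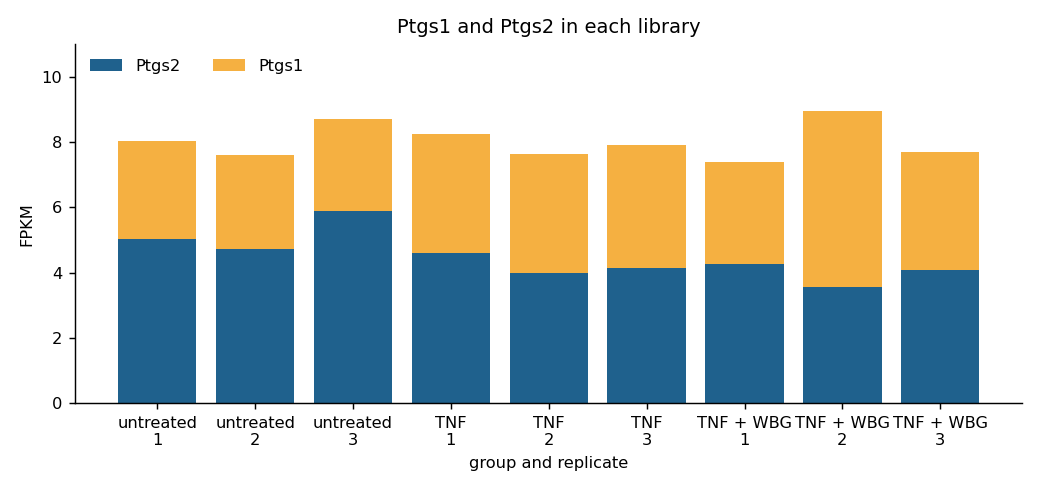
FPKM of Ptgs2 (lower part of each bar) and Ptgs1 (upper part) in the 9 libraries, by group and replicate. Bar heights are alike across groups, with means of 8.11, 7.92 and 8.01 FPKM, while the Ptgs2 part is smaller in the treated libraries.

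PGE2 synthesis was represented by 3 genes. Ptges encodes mPGES-1, which is commonly induced together with COX-2, and it had 1.19, 1.71 and 2.05 FPKM in the untreated libraries, 2.85, 2.73 and 2.32 FPKM with TNF, and 3.04, 2.66 and 3.23 FPKM with TNF plus WBG. No treated library overlapped with an untreated one. With TNF plus WBG the mean rose 1.80-fold over untreated, from 1.65 ± 0.434 to 2.98 ± 0.291 FPKM (SD, n = 3). The log2 fold change, of FPKM plus 1, was 0.59 ± 0.13 (95% interval 0.30 to 0.89, limma adjusted p = 0.0204). At so low a level the added 1 makes this value smaller than the ratio of means gives. Its size depended on the value added: it was 0.84 with the smallest pseudocount tried and 0.26 with the largest. With TNF alone the mean was 2.63 ± 0.281 FPKM, a log2 fold change of 0.47 ± 0.13 that lay just outside the threshold (adjusted p = 0.0527). The difference between TNF plus WBG and TNF was 0.13 ± 0.13 (interval -0.16 to 0.42, adjusted p = 0.816), so the data do not show that the treated groups differ. The call with TNF plus WBG was lost in 4 of 16 alternatives, among them those without TNF plus WBG replicate 1 (adjusted p = 0.0684) or replicate 3 (0.0663) and with no filter on low values (0.0692). With TNF alone the call was gained without untreated replicate 3 (0.0321). Adjusted p over the alternatives ran from 0.0154 to 0.0692 with TNF plus WBG and from 0.0321 to 0.147 with TNF.

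Ptges2, the gene of a second membrane-associated PGE synthase, had 2.38, 2.12 and 2.97 FPKM untreated, 2.10, 2.25 and 2.91 FPKM with TNF, and 2.29, 2.51 and 2.41 FPKM with TNF plus WBG. All 3 groups overlapped. The fold changes were within 0.03 of 0 on the log2 scale in each comparison (adjusted p of at least 0.913), with intervals that reached from -0.29 to 0.26 at the widest. Ptges3 encodes the cytosolic PGE synthase, also known as the HSP90 co-chaperone p23. It had 99.4, 88.3 and 93.0 FPKM untreated, 89.9, 89.6 and 93.4 FPKM with TNF, and 89.8, 89.2 and 96.5 FPKM with TNF plus WBG. These groups overlapped as well, and the 95% intervals of the 3 fold changes lay between -0.15 and 0.13 on the log2 scale. By level, Ptges3 made up 94.4 to 96.5% of the sum of the 3 genes in every library. The share of Ptges was 1.70 ± 0.488% untreated, 2.75 ± 0.351% with TNF and 3.06 ± 0.211% with TNF plus WBG (SD, n = 3). Set against Ptges2 alone, Ptges made up 33.4, 44.7 and 40.9% of the pair in untreated libraries, 57.7, 54.8 and 44.3% with TNF, and 57.1, 51.4 and 57.2% with TNF plus WBG. On that measure the untreated and TNF libraries overlapped, by TNF replicate 3.

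Ptgis, the gene of prostacyclin synthase, had 0.133, 0.282 and 0.237 FPKM untreated, 0.236, 0.376 and 0.255 FPKM with TNF, and 0.128, 0.332 and 0.227 FPKM with TNF plus WBG. The groups overlapped. A non-coding gene on the opposite strand, at up to 1.13 FPKM, overlaps its exons, and since no strand setting is given, reads of the pair cannot be told apart. Hpgd, which encodes the 15-hydroxyprostaglandin dehydrogenase that inactivates prostaglandins, was listed at 0 throughout. Of 76 cytosolic ribosomal protein genes 2 were listed at 0 in all libraries, Rpl10l and Rpl39l.

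The receptor genes were near the bottom of the scale. Ptger4, the gene of the PGE2 receptor EP4, had 0.0621, 0.148 and 0.119 FPKM untreated, 0.188, 0.136 and 0.0767 FPKM with TNF, and 0.236, 0.0812 and 0.177 FPKM with TNF plus WBG. The groups overlapped, and exons of Ptger4 overlap Ttc33 on the other strand, a gene at up to 20.2 FPKM. Ptgfr, the receptor gene for PGF2alpha, had 0.0174, 0.00699 and 0.0149 FPKM untreated, 0.0143, 0.0202 and 0.00799 FPKM with TNF, and 0, 0.0174 and 0.00800 FPKM with TNF plus WBG. At such levels no difference was detectable.

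**Figure D3:**
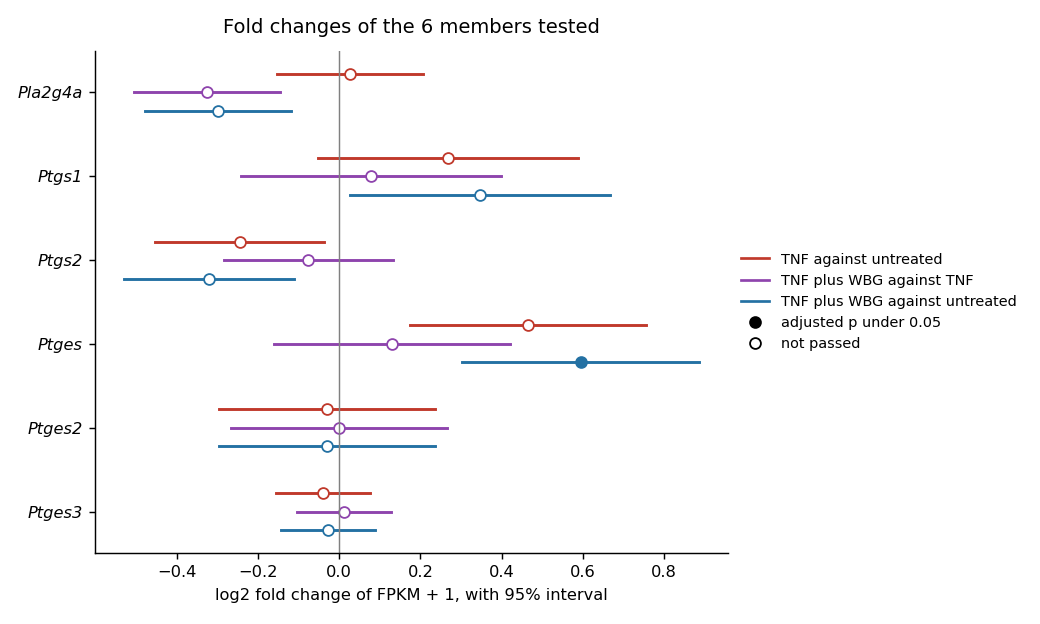
Log2 fold change of FPKM plus 1 (horizontal axis) with its 95% interval for the 6 members tested, in 3 comparisons (colours). The filled point, Ptges in TNF plus WBG against untreated at 0.59, is the only one with an adjusted p under 0.05.

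Across the set, 0 of the 6 members tested were called for TNF against untreated by limma, beside 10.6% of all genes tested, and 2 (Ptgs2 and Ptges) had an unadjusted p under 0.05. Between TNF plus WBG and TNF alone 0 of 6 were called, beside 0.0998% of all genes (0.0691% higher, 0.0307% lower), and 1 (Pla2g4a) had an unadjusted p under 0.05. For TNF plus WBG against untreated 1 of 6 rose and 0 fell, where 9.19% of all genes were called, 5.52% higher and 3.67% lower, and 4 had an unadjusted p under 0.05. Among all 13026 genes tested, the limma p before adjustment was under 0.05 for 3121, 1180 and 2976 genes in the same order. Member counts as small as these are no result about the set as a whole. The median log2 fold change of the 6 was -0.00 in the first comparison, 0.01 in the second and -0.03 in the third, beside 0.00, -0.00 and -0.00 over all genes tested. The first comparison shares its TNF libraries with the second and its untreated libraries with the third.

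The genes whose pattern over the 9 libraries was closest to that of Ptges were sought among 9109 genes with a mean of at least 5 FPKM. Likeness was the root mean square difference of log2 of FPKM plus 1, each profile centred on its untreated mean. At the low level of Ptges the added 1 shrinks its changes more than those of the genes compared, so likeness holds on this scale only. The closest were Gm45338 (0.09), Sipa1l2 (0.12) and Adam19, a membrane protease gene (0.13). Sipa1l2 had 6.74 ± 0.835 FPKM untreated, 10.5 ± 0.303 FPKM with TNF and 10.5 ± 0.343 FPKM with TNF plus WBG (SD, n = 3). Adam19 had 13.1 ± 1.39, 19.7 ± 0.567 and 19.5 ± 1.18 FPKM in the same order. Exons of Gm45338 and of Adam19 overlap other annotated genes.

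Beyond the members, 50 further genes of the prostanoid and leukotriene pathways were listed by role, and 24 passed the filter. For TNF against untreated 4 of these 24 rose and 1 fell, where 6.43% of all genes rose and 4.21% fell. For TNF plus WBG against untreated 4 rose and 1 fell, where 5.52% of all genes rose and 3.67% fell. Between TNF plus WBG and TNF alone 1 rose, where 0.0691% of all genes did, and 0 fell. Their median log2 fold changes, 0.05 with TNF and 0.02 with TNF plus WBG against untreated, lay close to those of all genes.

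**Figure D4:**
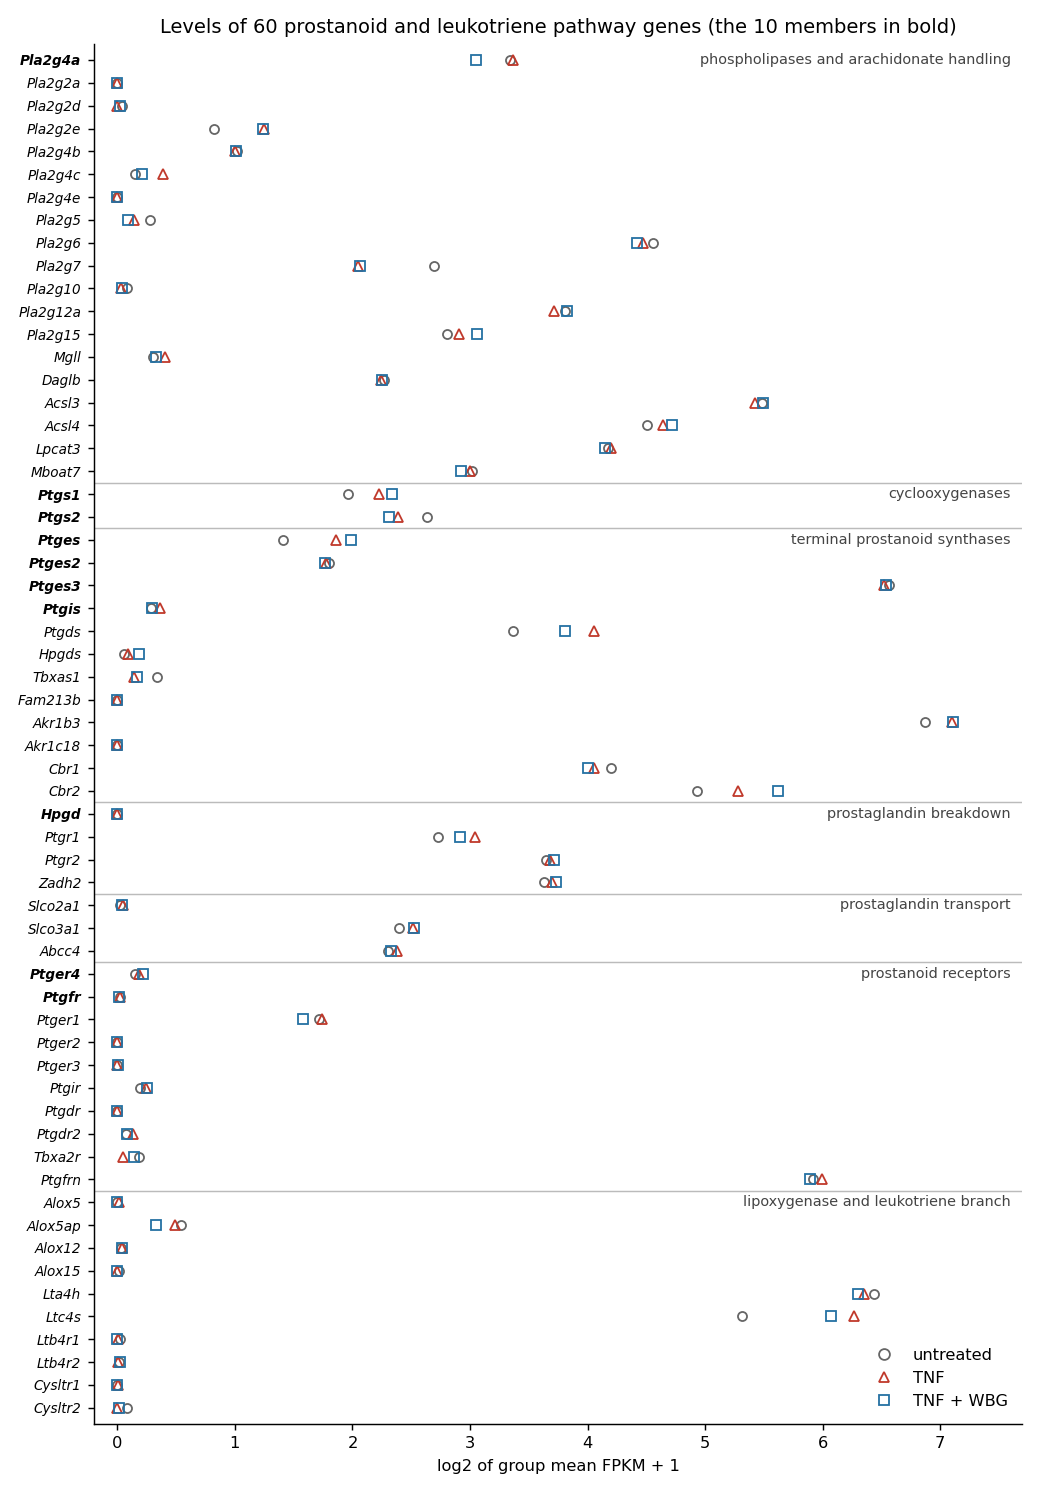
Group means as log2 of mean FPKM plus 1 (horizontal axis) for the 10 members (bold) and 50 further pathway genes, by role. Most receptors and the lipoxygenases lie at or near 0, whereas Ptges3, Akr1b3, Lta4h, Ltc4s and Ptgfrn are the highest.

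Among terminal synthases, the PGD2 synthase gene Ptgds had 10.0, 8.54 and 9.25 FPKM in untreated libraries, 16.1, 14.6 and 16.2 FPKM with TNF, and 13.5, 10.9 and 14.6 FPKM with TNF plus WBG. It rose 1.69-fold with TNF (log2 fold change 0.70 ± 0.10, limma adjusted p = 0.0026) and 1.40-fold with TNF plus WBG against untreated (0.44 ± 0.10, adjusted p = 0.0294). The latter call was lost in 6 of 17 alternatives, among them those without TNF plus WBG replicate 1 or 3 or untreated replicate 2 or 3 (adjusted p up to 0.0959). TNF plus WBG against TNF gave -0.26 ± 0.10 and did not pass (adjusted p = 0.516), and it was -0.14 without TNF plus WBG replicate 2. Hpgds, the haematopoietic PGD2 synthase gene typical of mast cells and some macrophages, had group means of 0.0415, 0.0631 and 0.135 FPKM.

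Cbr2, a carbonyl reductase gene, was called in all 3 comparisons. It had 30.3, 30.4 and 27.9 FPKM untreated, 37.4, 38.4 and 38.1 FPKM with TNF, and 47.6, 46.8 and 49.9 FPKM with TNF plus WBG, and no groups overlapped. It rose 1.28-fold with TNF (log2 fold change 0.35 ± 0.05, adjusted p = 0.00129), and all 17 alternatives called it. From TNF to TNF plus WBG it rose a further 1.27-fold (0.33 ± 0.05, limma adjusted p = 0.0476). That call lay at the threshold and was lost in 14 of 17 alternatives, with adjusted p from 0.0439 to 0.24 and a log2 fold change from 0.31 to 0.35. The omissions of TNF replicates 1, 2 and 3, of TNF plus WBG replicates 1, 2 and 3, and of untreated replicates 1 and 2 each ended it. Akr1b3, an aldose reductase that also makes PGF2alpha, was at 116, 136 and 137 FPKM in the group means. Cbr1, a relative of Cbr2, was at 17.4, 15.6 and 15.0 FPKM. Tbxas1, the thromboxane synthase gene, was at 0.265, 0.101 and 0.124 FPKM. Fam213b, a PGF2alpha synthase gene, and Akr1c18 were listed at 0.

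In breakdown, where Hpgd was at 0, the 3 reductase genes that act after it were present. Ptgr1 had 5.30, 5.77 and 5.78 FPKM untreated, 6.55, 7.42 and 7.75 FPKM with TNF, and 6.44, 6.60 and 6.60 FPKM with TNF plus WBG. Both treated groups lay above the untreated one and overlapped with each other. It rose 1.29-fold with TNF (0.31 ± 0.07, adjusted p = 0.0202), a call lost in 4 of 17 alternatives: without untreated replicate 1 or TNF replicates 2 or 3 (adjusted p up to 0.074) and with only the 6 libraries compared (0.0548). Ptgr2 and Zadh2 lay between 10.8 and 12.8 FPKM in all libraries and did not pass.

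Among phospholipases, Pla2g7, the gene of platelet-activating factor acetylhydrolase, fell with TNF. It had 7.10, 4.57 and 4.72 FPKM untreated, 3.61, 2.98 and 2.82 FPKM with TNF, and 3.13, 3.24 and 3.14 FPKM with TNF plus WBG. All treated libraries lay below all untreated ones. The log2 fold change was -0.63 ± 0.14 with TNF (limma adjusted p = 0.0239) and -0.61 ± 0.14 with TNF plus WBG (0.0286), both against untreated. The first call was lost in 4 of 16 alternatives: without TNF replicate 2 (0.0771) or 3 (0.0844), with no filter (0.0718) and with only the 6 libraries compared (0.0629). The second was lost in 5 of 16: without any of the TNF plus WBG replicates 1, 2 and 3 (up to 0.0832), with no filter (0.0848) and with only the 6 libraries compared (0.0574). Acsl4, which loads arachidonic acid onto coenzyme A, rose by a log2 of 0.21 ± 0.05 with TNF plus WBG against untreated, from 21.7 ± 0.755 to 25.3 ± 1.54 FPKM (adjusted p = 0.0396). It was no longer called in 11 of 17 alternatives, 8 of them omissions of a library (each one except TNF plus WBG replicate 3; adjusted p up to 0.13).

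In the leukotriene branch, Ltc4s had the largest fold change with TNF among the 24 further genes tested. Ltc4s, the gene of leukotriene C4 synthase, had 38.2, 41.2 and 37.0 FPKM untreated, 76.3, 74.5 and 76.9 FPKM with TNF, and 68.4, 62.8 and 68.1 FPKM with TNF plus WBG. It rose 1.96-fold with TNF (log2 fold change 0.95 ± 0.05, limma adjusted p = 5.57e-06) and 1.71-fold with TNF plus WBG (0.76 ± 0.05, 2.59e-05), and all 17 alternatives called it in both. The TNF plus WBG libraries lay between the other groups without overlap, but the difference from TNF, -0.19 ± 0.05, did not pass (adjusted p = 0.407). An antisense gene at up to 6.02 FPKM overlaps exons of Ltc4s. Its upstream partners were low: Alox5, the 5-lipoxygenase gene, was at most 0.0148 FPKM, and Alox5ap, its activating protein, at most 0.740 FPKM. Lta4h was at 85.6, 80.8 and 77.8 FPKM in the group means.

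**Figure D5:**
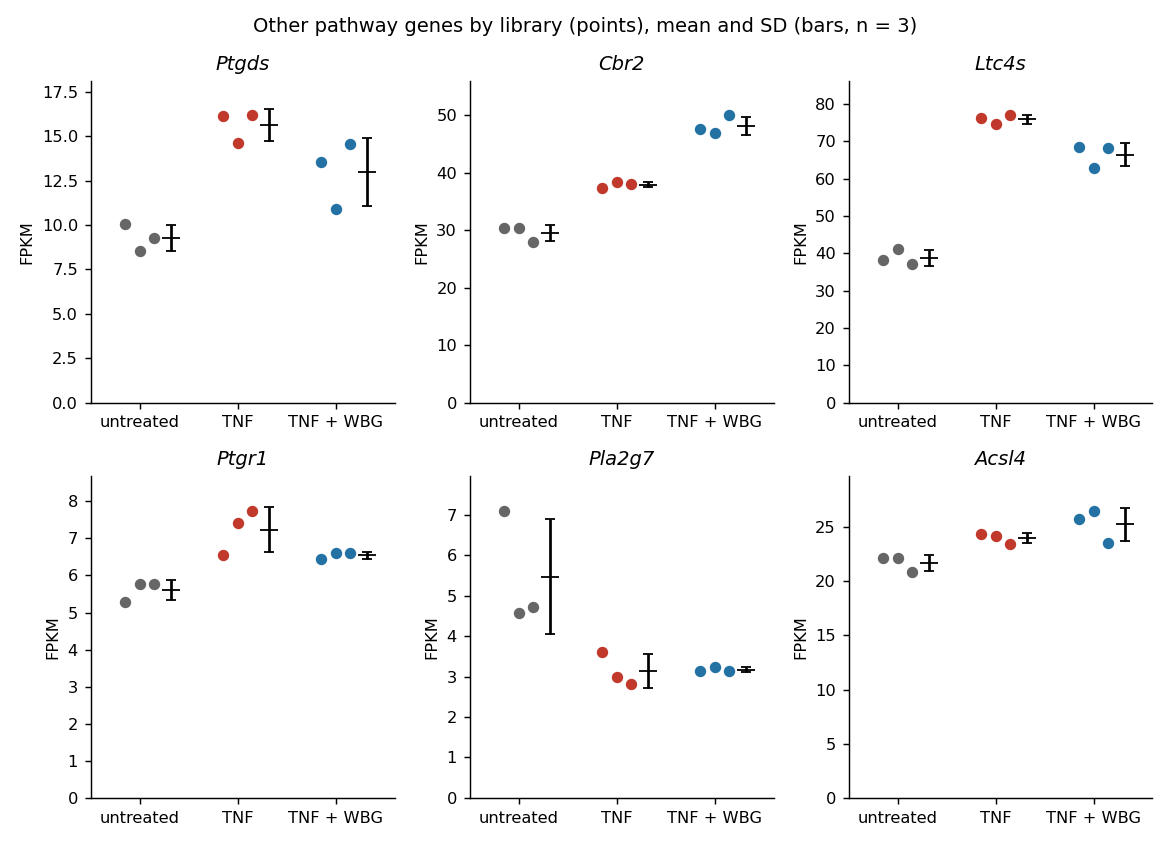
FPKM (vertical axis) in each of the 9 libraries (points, by group) of the 6 further pathway genes called in at least 1 comparison, with the group mean and SD beside them (n = 3). Ltc4s and Ptgds are higher with TNF, Pla2g7 is lower, and Cbr2 is highest with TNF plus WBG at 46.8 to 49.9 FPKM.

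Ptger1, the gene of the PGE2 receptor EP1, was the only gene of a prostanoid receptor itself to pass the filter, with group means of 2.28, 2.34 and 1.98 FPKM, and it was called in no comparison (limma adjusted p of at least 0.676). As no strand setting is given, the level of any gene may hold reads from the opposite strand. Ptger2 and Ptgdr were listed at 0 in all libraries and Ptger3 in 8 of 9. Ptgir had group means of 0.145, 0.187 and 0.188 FPKM, Ptgdr2 of 0.0535, 0.0935 and 0.0568 FPKM, and Tbxa2r of 0.138, 0.0331 and 0.102 FPKM. Ptgfrn, which encodes a membrane protein that inhibits the PGF2alpha receptor, was at 59.4, 62.7 and 58.5 FPKM, in libraries where the receptor gene itself was at most 0.0202 FPKM. Of the transporters, Abcc4, an exporter of prostaglandins, and Slco3a1 lay between 3.73 and 4.94 FPKM, and the uptake carrier gene Slco2a1 was at most 0.0466 FPKM.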

How the data were processed

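Poly-A RNA was sequenced as paired ends on an Illumina instrument, per the labels' protocols. The values used are the FPKM deposited by the authors, 1 per Ensembl gene and library. Which aligner, FPKM program, annotation, strand setting and build were used is not given in the sources used here. Symbols came from GENCODE M21 (55144 of 56289 identifiers matched). Depth, 18.9 to 26.1 M fragments, was inferred from whole steps of FPKM times length in single-exon genes: 24.9 to 27.5% of values lay within 0.02 of a whole step, where even spacing gives 4%. Genes with FPKM of at least 1 in at least 3 libraries were fitted with limma 3.58.1 (R 4.3.3, trend on, pseudocount 1, group as the only term, 9 libraries in 1 fit), tested on simulated data. Errors are SD for FPKM and SE for fold changes. Alternatives were pseudocounts of 0.1 and 5, no filter, a mean of at least 5 FPKM, median-ratio scaling, the 6 libraries compared alone, no trend, a replicate block and omission of each library. The members and lists were chosen with earlier results of these data known. All members are named, with every further pathway gene called, every receptor and terminal synthase, Nfkbia and Ccl2 as checks, and 3 genes closest in pattern to a called member. Other genes (markers, overlapping and neighbouring genes, and further pathway genes given by level) were named after their values were seen. Promoters are RefSeq's (GRCm38.p6). A detail of 1 receptor gene's surroundings is not reported here. Python 3.11.15, numpy 2.4.6, pandas 2.3.3, scipy 1.17.1 and matplotlib 3.10.9 were used.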

Additional observations from a re-analysis of the deposited data

How the results depend on the processing

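Depth is inferred only, and members under 1 FPKM were too low to compare. Over omissions of single libraries, genes called ran from 920 to 1299 for TNF against untreated (920 without TNF replicate 3; 1386 with all libraries), 8 to 14 for TNF plus WBG against TNF (8 without untreated replicate 1; 13 with all) and 814 to 1113 for TNF plus WBG against untreated. Members called ran from 0 to 1, 0 to 0 and 0 to 1 in that order, and other pathway genes called from 3 to 6, 0 to 1 and 2 to 6. With only the 6 libraries compared, the other pathway genes called were 3 with TNF against untreated, 0 between the treated groups (7 genes in all) and 3 for both agents against untreated. In the latter comparison, members called became 0 without a filter (2 other pathway genes) and 2, Ptges and Pla2g4a, with median-ratio scaling. Cbr2 was the 1 pathway gene called for TNF plus WBG against TNF, and the count became 0 with a pseudocount of 0.1, without a filter, with median-ratio scaling, without trend and with the replicate block. The cause was not tested. No pairing of the libraries by the shared replicate numbers was seen. Deviations from the group means correlated at -0.07 to 0.11 for the same number and -0.10 to 0.09 for other numbers. Of the 9 libraries, 0 correlated best with their own number in both other groups. Such values cannot show that the libraries were unpaired. With the replicate block, 8 genes were called for TNF plus WBG against TNF, and for TNF plus WBG against untreated 0 members, with Ptges at an adjusted p of 0.0511. Signs turned for fold changes near 0, none of them called. Omissions gave -0.0047 to 0.0668 for Pla2g4a, -0.13 to 0.0675 for Ptges2 and -0.0799 to 0.00458 for Ptges3 with TNF. For TNF plus WBG against TNF they gave -0.11 to 0.21 for Ptgs1, -0.0683 to 0.10 for Ptges2, -0.0235 to 0.0327 for Ptges3 and -0.0396 to 0.10 for Pla2g7, and with both agents against untreated -0.11 to 0.0674 for Ptges2 and -0.0676 to 0.0169 for Ptges3. Ptges2 for TNF plus WBG against TNF was 0.00306 with a pseudocount of 0.1 and 0.000362 with median-ratio scaling.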
